A study of Mus musculus with 8 samples.

Results

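The imprinted growth genes described here are H19, Igf2, Igf2r, Dlk1, Meg3, Rian, Peg3, Grb10, Plagl1 and Mest, 10 of the 42391 gene entries in the count table. They were taken by their symbols, and all 10 were listed. RNA was sequenced from C2C12 cells, an immortalised mouse myoblast line, and from primary myoblasts, the progenitors of skeletal muscle, isolated from hindlimbs of 5-week-old mice and pre-plated to remove fibroblasts. Both were labelled wild-type and received either a non-targeting siRNA (control) or a siRNA against Septin9 (Septin9-deficient), which encodes a subunit of the septin cytoskeleton. C2C12 cells received 50 nM siRNA, which amounted to 100 nM in the first 5 h, and were lysed after 60 h, the last 12 h of them in differentiation medium, whereas primary myoblasts were lysed 48 h after transfection in proliferation medium. Each of the 4 conditions had 2 replicates, which the methods describe as independent experiments, so that each replicate number joins a control and a Septin9-deficient sample of a cell type into a pair. The number and strain of the mice are not given in the sources used here. Every sample is bulk RNA of a culture, in which fewer cells of a type and less RNA per cell cannot be told apart.

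Imprinted genes are transcribed mainly from a single parental copy, and many sit in clusters whose members are switched by shared, methylated control regions. Paternally expressed members such as Igf2, Dlk1, Peg3, Plagl1 and Mest are mostly linked to growth of the embryo, whereas maternally expressed members such as H19, Igf2r and Meg3 are mostly linked to its restraint. In muscle, H19 and Igf2 are known to be induced when myoblasts differentiate, and the Dlk1-Meg3 cluster is known for its activity in muscle stem cells. The counts do not separate the parental copies, and the levels below are sums over both.

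The siRNA was first checked on its target. Septin9 stood at 409 and 435 CPM (counts scaled to a common depth of 1e6 by TMM over all 8 samples) in the C2C12 controls and fell by 1.36 ± 0.08 (SE) on the log2 scale, while in primary myoblasts it fell by 1.21 ± 0.15, in both pairs of each cell type (edgeR quasi-likelihood test, adjusted p = 5.11e-09 and 0.000134). Depth ranged from 20898611 to 27223414 counts per sample. All 7 myoblast identity markers, of which Myod1, Itga7, Ncam1 and Cdh15 were the most abundant in primary myoblasts, were detected in each group. The 19 muscle differentiation markers in the table, led by Myh3, Acta1, Des and Actc1 in primary controls, summed to 631 and 855 CPM in the C2C12 controls and to 24434 and 8176 CPM in the primary controls, although only C2C12 cells were in differentiation medium. Fibroblast markers summed to 4537 and 5200 CPM against 411 and 1372 CPM, and dividing cell markers to 2503 and 1220 CPM against 1729 and 1927 CPM. Sums were at most 0.184 CPM against 5.09 and 7.22 CPM for endothelial markers, 1.87 and 1.91 CPM against 4.38 and 2.83 CPM for macrophage markers, and 1.14 and 1.95 CPM against 2.49 and 2.45 CPM for glial markers. Tie1, Adgre1 and C1qa were at 0 in all controls, and Kdr, Ptprc, Itgam, Thy1 and Lum in the C2C12 controls.

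Among the members, H19 had the highest level in both cultures, and levels differed widely between the cultures. H19 is a long non-coding RNA. Its level was 333 and 788 CPM in the C2C12 controls and 8574 and 7261 CPM in the primary controls, where it had the second and the third highest count of all genes and took 0.835% and 0.717% of counts. Igf2, a secreted growth factor, stood at 3.14 and 9.23 CPM in the C2C12 controls and at 2035 and 934 CPM in the primary controls. Both primary controls were above both C2C12 controls, by 14.1-fold for H19 and by 240.0-fold for Igf2 between the group means.

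**Figure D1:**
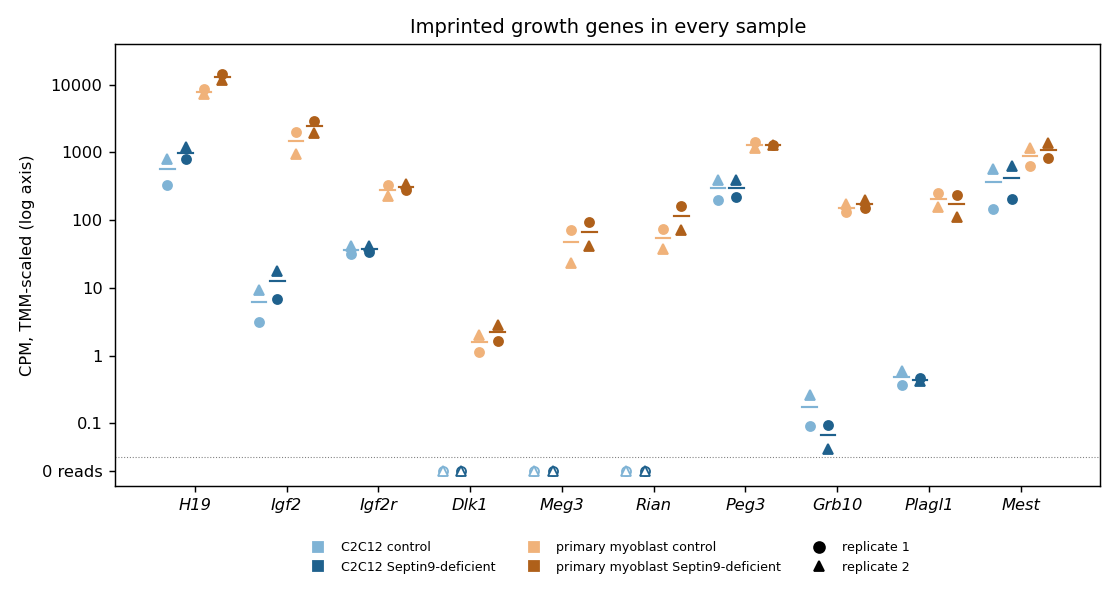
TMM-scaled CPM of the 10 genes on a log axis in all 8 samples, with circles for replicate 1, triangles for replicate 2 and short lines for the mean of each group. Open symbols on the lowest line mark samples with 0 reads, which were the 4 C2C12 samples for Dlk1, Meg3 and Rian, and H19 was the highest of these genes in every sample.

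Dlk1, Meg3 and Rian, neighbours on chromosome 12, had 0 reads in all 4 C2C12 samples. Dlk1 encodes a transmembrane protein related to Notch ligands, and Meg3 and Rian are long non-coding RNAs. In the primary controls, Meg3 was at 72.0 and 23.6 CPM, Rian at 73.0 and 37.4 CPM and Dlk1 at only 1.12 and 2.01 CPM, or 26 and 54 reads. Against the level that a count of 0 allows, set at 3 counts per library with a mean of 0.123 CPM, the primary controls were at least 387-fold higher for Meg3, at least 447-fold higher for Rian and at least 12.7-fold higher for Dlk1. Of the genes around them, Rtl1, which is protein-coding and overlaps the end of Meg3 and the start of Rian on the opposite strand, and Mirg, a non-coding host of microRNAs, also had 0 reads in C2C12 cells. The primary controls held 696 and 165 reads of Rtl1 and 117 and 49 reads of Mirg.

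Grb10 and Plagl1 were close to that floor in C2C12 cells. Grb10, an adaptor that dampens signalling of the insulin and Igf receptors, had 2 and 7 reads in the C2C12 controls and 3102 and 4624 in the primary controls, a ratio of 841 after scaling, with a 95% exact interval from 443 to 1840. Plagl1, a zinc-finger transcription factor known to act on other imprinted genes, had 8 and 16 reads against 5912 and 4158, a ratio of 411 with an interval from 276 to 642. Floor and intervals cover counting error only.

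The remaining members were well expressed in both cultures. Igf2r, a receptor that clears Igf2 from the cell surface, was at 31.4 and 41.7 CPM in the C2C12 controls and at 336 and 225 CPM in the primary controls. Peg3, a large zinc-finger protein, was at 200.1 and 396 CPM against 1445 and 1147 CPM. Mest, an enzyme of the alpha/beta hydrolase family, was at 147 and 573 CPM against 638 and 1165 CPM. For Mest the second C2C12 control came close to the first primary control, and the difference of 1.32 ± 0.76 (SE) on the log2 scale did not pass the test (edgeR, adjusted p = 0.203).

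Of the 10 members, 9 were called higher in primary myoblasts, at an adjusted p under 0.05 and a change of 1.5-fold or more in either direction, where 19.6% of all 17918 genes tested were called higher. For all 10 members both primary controls lay above both C2C12 controls, which held for 38.3% of genes tested. Dlk1, Meg3, Rian and Grb10 entered this fit only through the primary samples, where they are high, so they could lie on no other side and both counts are descriptions. With at least 10 counts required in every sample, 5 members remained, of which 4, H19, Igf2, Igf2r and Peg3, were called. The fitted differences on the log2 scale were 3.82 ± 0.45 (SE) for H19 (adjusted p = 0.00137), 7.90 ± 0.86 for Igf2 (adjusted p = 0.00106), 2.94 ± 0.27 for Igf2r (adjusted p = 0.000624) and 2.12 ± 0.39 for Peg3 (adjusted p = 0.00667). From a wider list, 51 other imprinted genes were tested, of which 20 were called higher and 6 lower in primary myoblasts. Over all genes tested, 6732 were called, 3506 of them higher. Among those called higher from the list, Phactr2, Klf14, Rtl1, Mirg, Zdbf2, Ppp1r9a, Asb4 and Igf2os did not pass the filter in C2C12 cells. For them too the side was fixed, and this count is a description as well. Cell type, medium and time after transfection changed together in this comparison and cannot be told apart. The marker sums given above moved with it as well, and their part in the result was not tested.

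Since a longer transcript yields more reads, levels of different genes were compared as CPM per kb of exon. The length counted each exon base of any annotated transcript of a gene once, from 2460 bases for H19 to 18234 for Rian. The order of the genes rests on this choice of length. In the primary controls H19 came first with 3218 ± 377 CPM per kb (SD, n = 2), followed by Igf2 with 259 ± 136, Mest with 228 ± 94.4 and Peg3 with 97.3 ± 15.8. Igf2r had 30.1 ± 8.47, Plagl1 26.1 ± 8.99, Grb10 16.8 ± 3.01, Rian 3.03 ± 1.38, Meg3 2.64 ± 1.89 and Dlk1 0.276 ± 0.111 CPM per kb. In this order, Igf2 and Mest, Igf2r and Plagl1, and Rian and Meg3 were neighbours with overlapping ranges. In the C2C12 controls H19 was again first, with 228 ± 131 CPM per kb, but its range overlapped that of Mest with 91.3 ± 76.5. Igf2 had 1.08 ± 0.753 CPM per kb there and stood behind Peg3 with 22.4 ± 10.4 and Igf2r with 3.93 ± 0.787.

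H19 (142575530 to 142578146) and Igf2 (142650768 to 142666816) lie 72.6 kb apart on the minus strand of chromosome 7 in the RefSeq annotation of GRCm38.p6. As background, they share enhancers that serve H19 on the maternal and Igf2 on the paternal copy. Mir675, the precursor of both arms of a microRNA, lies within H19 and had values that followed those of H19 in every sample, so its mature sequences from RefSeq (GRCm38.p6) are shown, with the seed, bases 2 to 8, in capitals.
miR-675-5p: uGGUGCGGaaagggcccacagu
miR-675-3p: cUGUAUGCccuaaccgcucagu
The libraries were made from polyA RNA, and mature microRNAs were not measured. Reads at Mir675 are reads across a stretch of the H19 locus. The H19 entry held 9.11 to 9.60 times as many reads as the Mir675 entry in each of the 8 samples. How a read that overlaps both entries was counted is not given in the sources used here.

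Upon Septin9 depletion, H19 and Igf2 rose in both cell types. In C2C12 cells, H19 went from 333 to 805 CPM in pair 1 and from 788 to 1191 CPM in pair 2. Both Septin9-deficient samples were above both controls, the first of them only just. Igf2 went from 3.14 to 6.95 CPM and from 9.23 to 18.0 CPM, so that it increased in both pairs while the groups overlapped. The fitted log2 fold changes were 0.92 ± 0.11 (SE) for H19 (adjusted p = 1.61e-05) and 1.03 ± 0.14 for Igf2 (adjusted p = 0.000128), from edgeR with the replicate as a block.

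In primary myoblasts, H19 went from 8574 to 14238 CPM and from 7261 to 11809 CPM, and both Septin9-deficient samples were above both controls. H19 had the highest count of all genes in both Septin9-deficient samples, with 1.33% and 1.17% of counts. Igf2 went from 2035 to 2929 CPM and from 934 to 1956 CPM, again an increase in both pairs with overlapping groups. The log2 fold changes were 0.72 ± 0.20 for H19 (adjusted p = 0.0391) and 0.80 ± 0.17 for Igf2 (adjusted p = 0.00900). Mir675 rose together with its host, by 0.89 ± 0.09 in C2C12 cells (adjusted p = 5.08e-06) and by 0.74 ± 0.14 in primary myoblasts (adjusted p = 0.00472). As its reads lie within the H19 locus, this is no separate result. Igf2os, a transcript antisense to Igf2, went from 185 to 225 and from 234 to 271 reads in primary myoblasts, a log2 fold change of 0.46 ± 0.16 that did not pass the test (adjusted p = 0.121).

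The direction of these changes held under every alternative fit, but not every call did. H19 in primary myoblasts was not called with RLE scaling (adjusted p = 0.119), with library size alone (adjusted p = 0.0728) or with a minimum of 10 counts in every sample (adjusted p = 0.0532), and Igf2 was not called there under either scaling (adjusted p = 0.0637 and 0.0607). In C2C12 cells H19 was not called by DESeq2 (adjusted p = 0.114). With pair 1 left out, the C2C12 log2 fold change was 0.60 for H19 and 0.97 for Igf2. With pair 2 left out, it was 1.27 for H19 and 1.14 for Igf2. That of Igf2 in primary myoblasts was 0.52 without pair 2, below the fold threshold. Such fits leave 1 pair in a cell type, so no p-value is given for them.

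**Figure D2:**
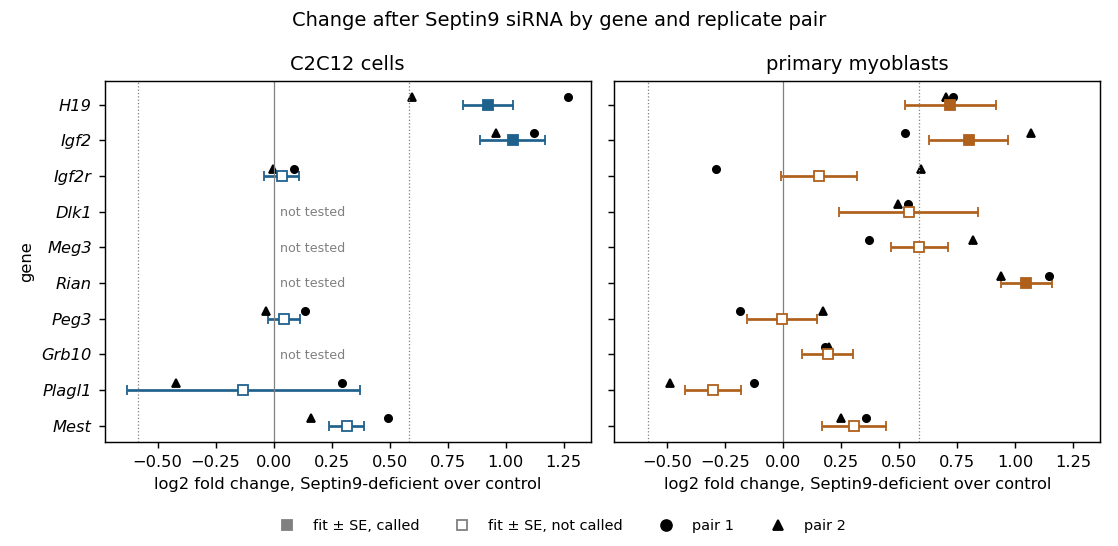
Log2 fold change of each gene after Septin9 siRNA, with squares for the edgeR fit ± SE (filled, called), circles for pair 1 and triangles for pair 2, and dotted lines at a 1.5-fold change in either direction. H19 and Igf2 were called higher in both cell types and Rian in primary myoblasts, while the fit for Meg3 at 0.5849 sat on the line.

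The balance between H19 and Igf2 did not shift in 1 direction. The log2 ratio of H19 to Igf2 was 6.69 and 6.40 in the C2C12 controls and 6.84 and 6.04 in the Septin9-deficient C2C12 samples. In primary myoblasts it was 2.07 and 2.96 in controls and 2.28 and 2.59 in Septin9-deficient samples, below the ratio of each C2C12 sample. Within pairs it changed by 0.15 and -0.36 in C2C12 cells and by 0.21 and -0.36 in primary myoblasts, upwards in pair 1 and downwards in pair 2 of both cell types. An exact two-sided sign-flip test over the 4 pairs gave p = 0.50, where 0.125 is the smallest p that 4 pairs can give.

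**Figure D3:**
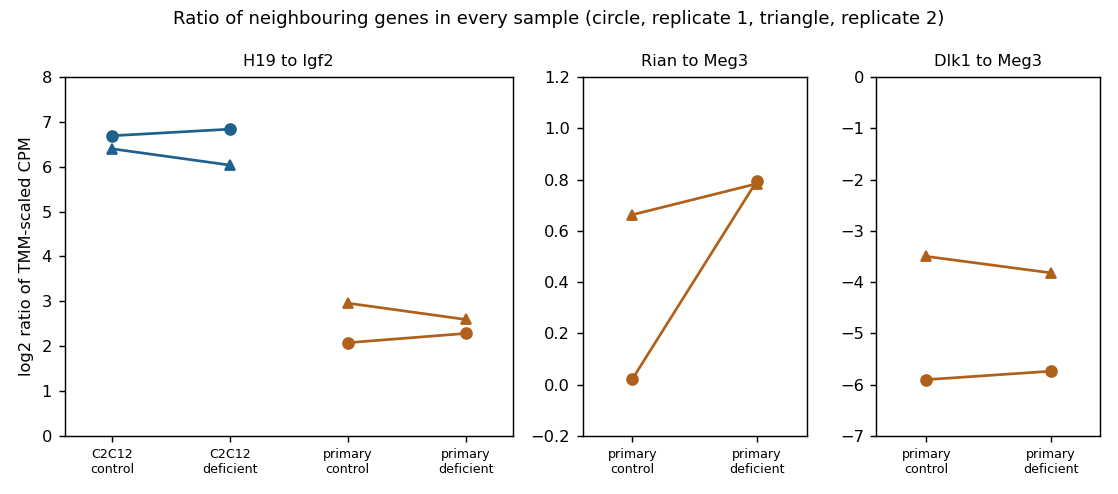
Log2 ratio of TMM-scaled CPM of neighbouring genes in every sample, with lines that join the control and the Septin9-deficient sample of a pair (blue, C2C12 cells, brown, primary myoblasts). For H19 to Igf2 the line of pair 1 rises and that of pair 2 falls in both cell types, and both Rian to Meg3 lines rise, by 0.77 and 0.12.

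Dlk1 (109452485 to 109463336), Meg3 (109540996 to 109571729) and Rian (109603945 to 109661716) follow each other in this order on the plus strand of chromosome 12 in GRCm38.p6, with 77.7 kb between Dlk1 and Meg3 and 32.2 kb between Meg3 and Rian. RefSeq gives 2 starts of Meg3. The window around the first, from 250 bases before to 50 after the start, is shown because the gene had 0 reads in C2C12 cells. Capitals mark CG, the dinucleotide at which imprinted control regions are methylated.
Meg3, chr12:109540746-109541045: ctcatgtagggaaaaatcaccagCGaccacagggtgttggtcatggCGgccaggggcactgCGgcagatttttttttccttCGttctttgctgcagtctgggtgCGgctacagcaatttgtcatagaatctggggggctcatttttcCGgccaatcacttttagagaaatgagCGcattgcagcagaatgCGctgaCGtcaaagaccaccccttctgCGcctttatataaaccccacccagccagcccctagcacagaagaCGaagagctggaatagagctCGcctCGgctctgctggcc
The motif CG, which reads the same on both strands, occurred 13 times in this window. Of the 32851 windows of RefSeq genes of this length, 37.9% held at least 13. The window of the second Meg3 start held 1, that of Dlk1 held 9 and that of Rian held 0. Methylation was not measured in these samples.

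In primary myoblasts, Rian rose upon Septin9 depletion. It went from 73.0 to 161 CPM in pair 1 and from 37.4 to 71.6 CPM in pair 2, a log2 fold change of 1.05 ± 0.11 (SE, adjusted p = 2.93e-05). The groups overlapped, since the second Septin9-deficient sample lay just below the first control. Rian was called in every alternative fit with the replicate block. With 1 pair left out, its log2 fold change was 0.95 or 1.14. Those fits cannot test Rian, because the C2C12 samples beside the lone pair had 0 reads of it.

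Meg3 went from 72.0 to 93.0 CPM and from 23.6 to 41.5 CPM. Its log2 fold change of 0.5849 ± 0.12 (adjusted p = 0.00871) lay just below the 1.5-fold threshold, so that it was not called, although it was called at 0.59 without a filter on low counts (adjusted p = 6.93e-05) and with at least 10 counts in every sample (adjusted p = 0.00712). It missed the p threshold with RLE scaling (adjusted p = 0.0569), library size alone (adjusted p = 0.0760) and DESeq2 (adjusted p = 0.0676). Its log2 fold change was 0.82 with pair 1 left out and 0.37 with pair 2 left out. Dlk1 went from 1.12 to 1.66 CPM and from 2.01 to 2.86 CPM, or from 26 to 37 and from 54 to 60 reads, a log2 fold change of 0.54 ± 0.30 that did not pass the test (adjusted p = 0.396). All 3 neighbours thus had higher values in both pairs, and for Dlk1 a change of this size could not be told from the spread at its depth.

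Rtl1, between Meg3 and Rian, and Mirg, downstream of Rian, had higher values in both pairs as well. Rtl1 went from 696 to 914 and from 165 to 260 reads and rose by 0.69 ± 0.15 (adjusted p = 0.00890). This call was lost with RLE scaling (adjusted p = 0.0578), library size alone (adjusted p = 0.0763) and DESeq2 (adjusted p = 0.0856). Without pair 2 the log2 fold change of Rtl1 was 0.45, below the fold threshold. Mirg went from 117 to 153 and from 49 to 57 reads, a log2 fold change of 0.50 ± 0.23 that did not pass (adjusted p = 0.273). As Rtl1 overlaps Meg3 and Rian on the other strand and strand-specific counting is not stated, reads of these genes may have been shared. Dlk1, Meg3 and Rian are each also listed as a further copy with equal or nearly equal counts, and with such copies left out, an alternative chosen after seeing the data, Meg3 just passed the fold threshold and was called (adjusted p = 0.00634).

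The ratio of Rian to Meg3 on the log2 scale was 0.02 and 0.66 in the primary controls and 0.79 and 0.78 in the Septin9-deficient samples, so that Rian gained on Meg3 by 0.77 in pair 1 and by 0.12 in pair 2. That of Dlk1 to Meg3 was -5.91 and -3.50 in controls and -5.74 and -3.82 in Septin9-deficient samples, with changes of 0.16 and -0.32. That of Dlk1 to Rian changed by -0.61 and -0.44. The Dlk1 ratios differed more between the 2 experiments than between siRNAs. With 2 pairs, the smallest p of an exact sign-flip test is 0.50, and no ratio could pass.

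The receptor and the adaptor that limit Igf signalling were not called. Igf2r was at 31.4, 33.4, 41.7 and 41.6 CPM in control and Septin9-deficient C2C12 samples of pair 1 and then pair 2 (log2 fold change 0.04 ± 0.07, adjusted p = 0.863). In primary myoblasts it went from 336 to 275 CPM in pair 1 and from 225 to 339 CPM in pair 2, opposite directions that averaged to 0.15 ± 0.16 (adjusted p = 0.721). Without pair 1 its log2 fold change was 0.60, and without pair 2 it was -0.29, each from 1 control and 1 Septin9-deficient sample. A further entry of Igf2r with fewer reads was not called either, with -0.24 ± 0.42 in C2C12 cells and 0.14 ± 0.27 in primary myoblasts. Airn is the non-coding RNA that overlaps Igf2r on the other strand. In primary myoblasts it went from 87 to 110 and from 51 to 66 reads (log2 fold change 0.55 ± 0.24, adjusted p = 0.253). A further entry of Airn went from 54 to 52 and from 30 to 36 reads there (0.28 ± 0.31, adjusted p = 0.739). Grb10 went from 133 to 151 CPM and from 172 to 197 CPM in primary myoblasts, a log2 fold change of 0.19 ± 0.11 (adjusted p = 0.432), and had too few reads in C2C12 cells to be tested.

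Plagl1, Peg3 and Mest were likewise not called. Plagl1 went from 254 to 233 CPM and from 155 to 110.2 CPM in primary myoblasts. It was the member with a lower value in both pairs there, as 29.4% of genes tested had (log2 fold change -0.30 ± 0.12, adjusted p = 0.183), while its C2C12 value of -0.13 ± 0.50 (adjusted p = 0.934) rests on 8 to 16 reads a sample. Hymai, a non-coding RNA that overlaps Plagl1, went from 154 to 128 and from 93 to 51 reads in primary myoblasts (log2 fold change -0.34 ± 0.22, adjusted p = 0.485).

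Peg3 was at 200.1 and 220 CPM in pair 1 and at 396 and 387 CPM in pair 2 of C2C12 cells, and at 1445 and 1271 CPM and at 1147 and 1289 CPM in primary myoblasts, with log2 fold changes of 0.04 ± 0.07 (adjusted p = 0.803) and -0.01 ± 0.15 (adjusted p = 0.992). Peg3os and Usp29, its antisense and divergent neighbours, were not called either, with 0.14 ± 0.07 and -0.09 ± 0.23 for the C2C12 line and -0.02 ± 0.12 and 0.07 ± 0.12 for primary myoblasts. Mest went from 147 to 207 CPM and from 573 to 641 CPM in C2C12 cells. Its log2 fold change of 0.32 ± 0.08 passed the test (adjusted p = 0.0161) but not the fold threshold, and it was 0.30 ± 0.14 in primary myoblasts (adjusted p = 0.277). Copg2, which overlaps the end of Mest on the other strand, was at 0.17 ± 0.07 and 0.16 ± 0.13, neither of which passed (adjusted p = 0.197 and 0.609).

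Of the members, 2 of the 6 tested in C2C12 cells and 3 of the 10 tested in primary myoblasts were called, all higher in Septin9-deficient samples. The members were chosen with earlier results of these data known, so the counts and medians given here are descriptions. Over all genes tested, 0.828% (131 of 15814) were called higher in C2C12 cells and 2.87% (491 of 17117) in primary myoblasts, where 165 of 206 called genes were higher with scaling by library size alone in place of 491 of 542. The 4 members not tested in C2C12 cells were Dlk1, Meg3, Rian and Grb10, which did not pass the filter on low counts. The median log2 fold change of the tested members was 0.18 in C2C12 cells and 0.42 in primary myoblasts, beside -0.00079 and 0.01 over all genes. Higher values in both pairs were found for 3 of 6 members in C2C12 cells and 7 of 10 in primary myoblasts, and for 31.3% and 32% of all genes tested. Lower values in both pairs were found for 0 of 6 and 1 of 10 members, beside 30.4% and 29.4% of genes. H19 was the member whose Septin9-deficient samples were both above both controls in either cell type, as were 13.3% and 12.5% of genes.

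For most members, the 2 controls of a cell type differed from each other by more than the siRNA effect. The share of all genes with such a gap was not determined. Between the C2C12 controls, replicate 2 exceeded replicate 1 by 1.97 for Mest, 1.53 for Igf2, 1.24 for H19 and 0.98 for Peg3 on the log2 scale, and this gap was larger than the siRNA effect for all 6 members tested. In primary myoblasts it was larger for 8 of 10, the exceptions being H19 with -0.24 and Rian with -0.97. Meg3 was lower in the second primary control by 1.61 and Igf2 by 1.12 on the log2 scale, whereas Mest and Dlk1 were higher by 0.87 and 0.80. Without the replicate block, which takes this gap out, edgeR called 0 genes in either cell type, with 372 (C2C12) and 378 (primary myoblasts) genes at an unadjusted p under 0.05 and 99 and 230 called by DESeq2 with the block, and H19, Igf2 and Rian had adjusted p-values of 1.00.

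**Figure D4:**
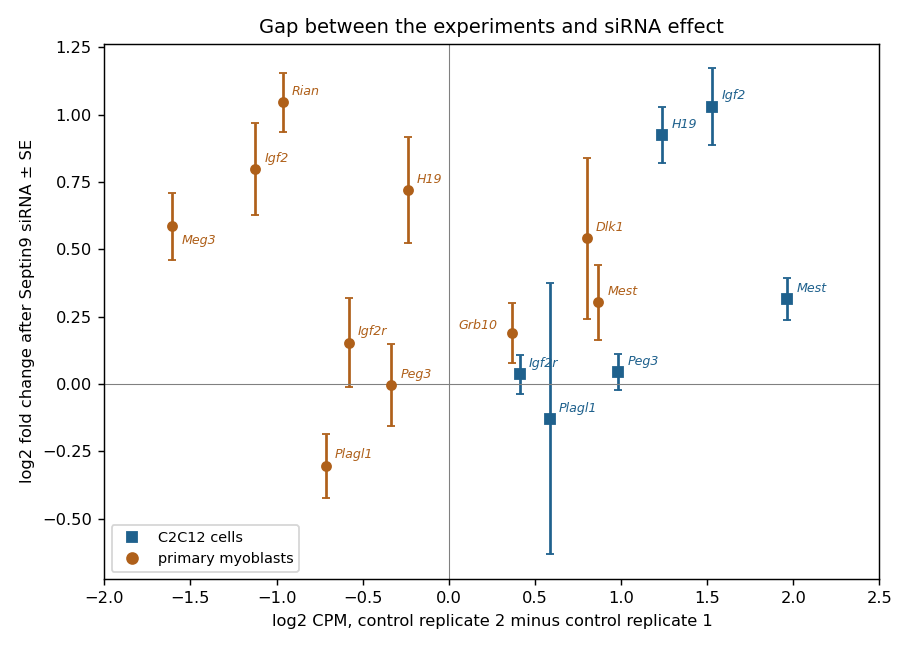
Log2 fold change after Septin9 siRNA (± SE) against the log2 CPM difference between control replicate 2 and control replicate 1, for the members tested in C2C12 cells (squares) and primary myoblasts (circles). All 6 C2C12 points lie right of 0, from 0.41 for Igf2r to 1.97 for Mest, while primary myoblast points lie on both sides, from -1.61 for Meg3 to 0.87 for Mest.

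The size of the siRNA effect was not shown to differ between the cell types for any member. The effect in primary myoblasts minus that in C2C12 cells was -0.22 ± 0.23 (SE) for H19 (edgeR interaction term, adjusted p = 0.858) and -0.23 ± 0.23 for Igf2 (adjusted p = 0.838), and the lowest adjusted p among the 7 members with reads in C2C12 cells was 0.648, for Grb10. Over all 17918 genes this test called 0, with 1469 at an unadjusted p under 0.05, and DESeq2 called 21, none of them a member. For Dlk1, Meg3 and Rian no such difference can be had, because C2C12 cells had 0 reads.

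Muscle differentiation markers moved in the same samples. Of these markers, 8 of 18 tested were called higher in C2C12 cells and 15 of 19 in primary myoblasts. The shares over all genes tested were 0.828% and 2.87%. Median log2 fold changes of the markers were 0.61 and 0.84. Acta1 had a value below 0 in both, -0.40 ± 0.13 in C2C12 cells and -0.06 ± 0.18 in primary myoblasts (edgeR, adjusted p = 0.0841 and 0.914). The summed level of the markers went from 631 to 957 and from 855 to 1128 CPM in C2C12 cells. In primary myoblasts it went from 24434 to 33352 and from 8176 to 18054 CPM. Dividing cell markers went from 2503 to 2082 and from 1220 to 1037 CPM in C2C12 cells. In primary myoblasts they went from 1729 to 1416 and from 1927 to 1523 CPM. Myoblast identity markers went from 924 to 1120 and from 1394 to 1498 CPM, and from 3039 to 3025 and from 2147 to 2360 CPM. Of these 7, 0 were called in C2C12 cells. In primary myoblasts Myf5 was called lower (-0.78 ± 0.16, edgeR, adjusted p = 0.00679), while 4 of the 7 had values above 0. Fibroblast markers went from 4537 to 4915 and from 5200 to 4863 CPM in C2C12 cells and from 411 to 379 and from 1372 to 1716 CPM in primary myoblasts, and endothelial, macrophage and glial sums stayed below 8 CPM. The part of these markers in the change of the imprinted genes was not tested.

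The genes whose profile lay closest to a member were found from the log2 CPM of the 8 samples, centred within each cell type, as a description without a test. For H19 these were Mir675, Mdfi, an inhibitor of myogenic transcription factors, Pcbd1, Cdkl1 and Mir12181, with root mean square differences from 0.03 to 0.16 beside a spread of 0.55 for H19 itself. For Igf2 these were Mymx, which encodes a fusion peptide of myoblasts, Pygm, the muscle glycogen phosphorylase, which is listed as 2 copies, Actn3, a protein of fast fibres, and Arpp21, at 0.10 to 0.14 beside 0.76. For Meg3 these were its own copy, Mir410, Gjd4, Mirg and Mir1906-2, at up to 0.07 beside 0.54, with C2C12 values at 0. H19 ranked 93 of 17917 genes by closeness to Igf2, and Rian ranked 198 by closeness to Meg3. All points share the same 8 libraries.

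Of the wider list of other imprinted genes, 2 of 41 tested were called in C2C12 cells and 4 of 50 in primary myoblasts. All were higher, and the list medians were 0.01 and 0.10. Over all genes tested, 0.828% and 2.87% were called higher, and 491 of the 542 genes called in primary myoblasts were higher. The list was chosen with earlier results of these data known, so its counts are descriptions. Kcnq1ot1, a non-coding RNA of the cluster next to H19 and Igf2, rose in C2C12 cells from 3.41 to 4.71 and from 3.38 to 6.35 CPM (0.70 ± 0.20, adjusted p = 0.0389), and had -0.35 ± 0.19 in primary myoblasts (adjusted p = 0.381). Cdkn1c, a cell cycle inhibitor of the same cluster, rose in primary myoblasts from 66.6 to 106 and from 22.2 to 79.3 CPM (1.24 ± 0.18, adjusted p = 0.000656), and had 0.17 ± 0.09 in C2C12 cells (adjusted p = 0.342). Qpct rose in C2C12 cells by 1.07 ± 0.23 (adjusted p = 0.00701), and in primary myoblasts Ddc and Cobl, both next to Grb10, rose by 0.63 ± 0.13 and 0.61 ± 0.12 (adjusted p = 0.00768 and 0.00634), the other being Rtl1.

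Of the Igf signalling genes, 20 were tested in each cell type. In C2C12 cells 1 was called and in primary myoblasts 2, all higher, beside 0.828% and 2.87% of all genes tested. Igfbp4, which binds Igf outside the cell, rose in both, from 7.69 to 16.2 and from 21.2 to 32.3 CPM in C2C12 cells (0.79 ± 0.11, adjusted p = 0.000111) and from 54.5 to 99.3 and from 107.6 to 171 CPM in primary myoblasts (0.77 ± 0.11, adjusted p = 0.000538). Igf1, the second Igf ligand, rose in primary myoblasts from 7.13 to 13.7 and from 1.60 to 4.72 CPM (1.17 ± 0.21, adjusted p = 0.00250), and had -0.18 ± 0.09 in C2C12 cells (adjusted p = 0.313). The list medians were -0.01 and 0.04. The remaining genes of this list, 19 in C2C12 cells and 18 in primary myoblasts, were not called. Some of them passed the edgeR test but not the fold threshold. Irs1 was lower in C2C12 cells (-0.38 ± 0.07, adjusted p = 0.00109) and primary myoblasts (-0.44 ± 0.11, adjusted p = 0.0230). Higher were Igfbp2 (0.44 ± 0.08, adjusted p = 0.00124) and Igfbp6 (0.22 ± 0.07, adjusted p = 0.0473) in C2C12 cells and Igfbp7 in primary myoblasts (0.43 ± 0.11, adjusted p = 0.0347).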

How the data were processed

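Raw counts of all 8 samples were deposited, which the authors made with STAR 2.7.2 (alignment to GRCm38.p6) and featureCounts 2.0.1. They also deposited, per cell type, a normalized signal: counts corrected for batch with ComBat-Seq and divided by DESeq2 size factors, from which 100% of values came out as whole reads after division by the smallest step (tolerance 0.1), so that the corrected counts could be tested. Genes are listed by symbol, and strand-specific counting is not given in the sources used here. Of the lines, 16 were broken and left out, and 42391 entries remained, of which 2379 are named as further copies.

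The members and gene lists were chosen with earlier results of these data known. Samples were grouped by label. Each cell type was fitted alone on raw counts with edgeR 4.0.16 in R 4.3.3 (filterByExpr, TMM, quasi-likelihood test, Benjamini-Hochberg adjustment over all genes), with the replicate as a block, since the study corrected for its 2 independent experiments. Replicate numbers in the labels gave the pairing, and deviations of same-numbered samples correlated with r = 0.678 (C2C12 cells) and 0.820 (primary myoblasts). A call needed an adjusted p under 0.05 and a change of 1.5-fold or more, the thresholds of the study. Controls and the interaction were fitted over all 8 samples. Log2 CPM had a prior count of 2. Named were the members, genes overlapping them, called genes of 2 lists and the 5 nearest profiles of H19, Igf2 and Meg3. Genes of the Igf list that passed the test but not the fold threshold were named after their values were seen. Levels per kb used the exon length of a gene in GENCODE M21, joined over all its transcripts. Depth of 20898611 to 27223414 counts sets the floor of 3 counts, and precision rests on 2 replicates. Alternatives were other scalings and filters, DESeq2 1.42.0, the corrected counts, no block and leaving out samples. The scripts were tested on simulated data.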

Additional observations from a re-analysis of the deposited data

How the results depend on the processing

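The direction of the siRNA effect was kept under all alternatives for the called members H19, Igf2 and Rian. Without the replicate block, 0 genes were called in either cell type, none of them a member (2 and 3 with the pairing). For Mest the difference of the siRNA effect between cell types turned from -0.024 to 0.051, and no other member changed direction. A replicate block across both cell types in the controls called Mest too, for 10 members (1.55, adjusted p = 0.0122). In C2C12 cells 248 genes were called, against 99 (1 member) with DESeq2, 154 on the batch-corrected counts and 83 with all 8 samples in 1 fit. In primary myoblasts 542 were called, against 260 (1 member) with RLE, 206 (1 member) with library size and 230 with DESeq2, and Peg3 turned to 0.00088 with both RLE and DESeq2. The difference of the siRNA effect between cell types, with 0 calls, had 199 without a filter, 21 with DESeq2 and 3 without further copies. Leaving out the copies was an alternative chosen after seeing the data. In the controls, a minimum of 10 counts left 4 called members, since it removes Dlk1, Meg3, Rian, Grb10 and Plagl1. The cause of the other changes was not tested. Neighbour ratios moved by less than the spread between pairs under both alternatives.

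Leaving out a replicate pair, where the lone pair is assumed to vary like the other cell type, gave 98 to 181 called genes (0 to 1 members) in C2C12 cells, 358 to 926 (2 to 5) in primary myoblasts and 51 to 470 for their difference. Leaving out a control gave 4046 to 5502 between controls. Log2 fold changes then ranged from -0.0035 to 0.089 for Igf2r, -0.030 to 0.13 for Peg3 and -0.49 to 0.35 for Plagl1 in C2C12 cells, and from -0.29 to 0.60 for Igf2r and -0.19 to 0.18 for Peg3 in primary myoblasts. Differences of the siRNA effect between cell types ranged from -0.55 to 0.12 for H19 and from -0.49 to 0.061 for Igf2. They ranged from -0.32 to 0.57 for Igf2r, -0.23 to 0.14 for Peg3, -0.66 to 0.18 for Plagl1 and -0.19 to 0.14 for Mest. Depth limits Dlk1, with 26 to 60 reads a sample in primary myoblasts, and Grb10 and Plagl1 in C2C12 cells.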
